A study of Mus musculus with 12 samples.

Results

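The genes of prostaglandin synthesis, breakdown and reception were examined in cultured mouse pancreatic cancer cells that differ in p53 status. The members are 7 genes of the pathway to prostaglandin E2 and of its receptors, namely Pla2g4a, Ptgs1, Ptgs2, Ptges, Hpgd, Ptger2 and Ptger4. Every probe set annotated with exactly 1 gene symbol, that of a member, was taken, which gave 11 probe sets of 6 genes among 45037 probe sets tested and 18193 genes. Ptgs1, the constitutive cyclooxygenase, has no such probe set in the platform annotation used here and was not analysed here. Ptgs2, Hpgd and Ptger4 are each represented by a pair of probe sets, Ptges by 3, and Pla2g4a and Ptger2 by 1 each.

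Expression was measured on Affymetrix mouse arrays in 4 groups of 3 arrays, 12 in all. The mt-CCs were cancer cells from Pdx1-Cre tumors carrying LSL-K-ras G12D/+ and LSL-Trp53 R172H/+, the mouse form of a p53 hotspot mutation. The second group was fl-CCs transfected with human mutant p53 R175H (R175H cells), and the third was fl-CCs with an empty vector (EV cells). Parental fl-CCs were cancer cells from Pdx1-Cre tumors with LSL-K-ras G12D/+ and LSL-Trp53 fl/+, in which Cre removes the floxed p53 allele, and their labels call them p53-null. All 4 groups therefore carry the same mutant K-ras allele, switched on by Cre in the pancreatic lineage. All cells grew in DMEM with 10% FBS to 60% confluency, and G418 at 0.6 mg/ml was added to the medium of R175H and EV cells only. The comparison of mt-CCs with fl-CCs addresses endogenous mutant p53 against loss of p53, and that of R175H with EV cells addresses the introduced mutant in the same p53-null background. Each group stands for 1 cell line or transfected culture, so p-values measure the spread between the 3 cultures of a line and not between tumors.

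Prostaglandin E2 is made in steps. A phospholipase frees arachidonate from membranes, a cyclooxygenase turns it into prostaglandin H2, and a terminal synthase isomerizes that to prostaglandin E2. The product leaves the cell and acts on EP receptors of the same or neighboring cells, of which EP2 and EP4 raise cyclic AMP, and it is taken back up by a transporter and inactivated by a dehydrogenase. In pancreatic and other carcinomas the pathway is known for its induction downstream of inflammatory and Ras signaling and for its effects on fibroblasts and immune cells of the stroma.

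To place the members whose levels were higher with R175H, the windows around the start sites of Ptgs2, Ptges and Hpgd are printed here from RefSeq (GRCm38.p6), each 300 bases long with 250 bases before the start and 50 after it, 5' to 3' on the gene's strand. They lie at chr1:150099781-150100080 (plus strand), chr2:30903248-30903547 (minus strand) and chr8:56294302-56294601 (plus strand). Capitals mark matches, on either strand, to the GC box GGGCGG, the cyclic AMP response element core TGACG, the E-box CACGTG, the TATA box TATAAA, the C/EBP pattern TTNCNNAA and the NF-kB consensus.
Ptgs2: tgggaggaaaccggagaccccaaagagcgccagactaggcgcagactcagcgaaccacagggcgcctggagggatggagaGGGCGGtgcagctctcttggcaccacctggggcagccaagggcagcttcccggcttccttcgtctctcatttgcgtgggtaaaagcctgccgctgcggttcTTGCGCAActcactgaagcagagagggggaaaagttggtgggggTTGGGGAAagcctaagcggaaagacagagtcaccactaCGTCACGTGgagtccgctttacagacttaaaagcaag
Ptges: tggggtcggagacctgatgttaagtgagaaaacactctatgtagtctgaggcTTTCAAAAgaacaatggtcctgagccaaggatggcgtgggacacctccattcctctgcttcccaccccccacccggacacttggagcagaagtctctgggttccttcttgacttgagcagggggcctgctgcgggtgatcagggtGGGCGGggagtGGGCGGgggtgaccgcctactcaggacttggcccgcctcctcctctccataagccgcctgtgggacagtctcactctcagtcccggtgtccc
Hpgd: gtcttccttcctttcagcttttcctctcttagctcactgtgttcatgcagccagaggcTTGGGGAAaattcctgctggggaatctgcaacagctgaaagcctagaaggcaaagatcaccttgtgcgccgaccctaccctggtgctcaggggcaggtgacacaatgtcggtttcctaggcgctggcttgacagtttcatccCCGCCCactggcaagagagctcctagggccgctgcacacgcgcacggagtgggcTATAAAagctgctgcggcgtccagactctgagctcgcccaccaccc

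The Ptgs2 window held a GC box at bases 81 to 86, C/EBP matches at bases 182 to 189 and 226 to 233, and a cyclic AMP response element core at bases 264 to 268 that overlaps an E-box at bases 267 to 272. In the Ptges window lay a C/EBP match at bases 53 to 60 and GC boxes at bases 198 to 203 and 209 to 214. Hpgd had a C/EBP match at bases 59 to 66, a GC box at bases 201 to 206 and a TATA box at bases 255 to 260. The letters of the NF-kB consensus were in none of the 3 windows. Among 32841 RefSeq promoter windows of the same length, 35.7% held a GC box, 40.7% a C/EBP match, 20.8% a cyclic AMP response element core, 13.6% a TATA box, 7.15% the E-box and 4.51% the NF-kB consensus. These matches describe letters only, and no binding was measured.

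Values are log2 RMA values, on which a difference of 1 is a doubling, and a level is compared between arrays and never between probe sets. Values under 5 were taken as near background, a limit chosen here because the data carry no detection calls. The groups were well separated over all probe sets. Correlations between arrays were 0.994 to 0.996 within groups, 0.983 to 0.990 among the fl-CC-derived groups and 0.959 to 0.962 between mt-CCs and the others. Among 10 epithelial markers, 8 were lower in mt-CCs than in fl-CCs and 0 higher, with a mean level per array of 8.05 to 8.06 in mt-CCs and 9.81 to 9.86 in fl-CCs. Of 12 fibroblast markers, 6 were higher and 1 lower, with a mean level of 5.25 to 5.39 in mt-CCs and 4.18 to 4.34 in fl-CCs. Between R175H and EV cells, 3 epithelial markers were higher and 2 lower, and 1 fibroblast marker was higher and 0 lower. The 6 endothelial markers were under 5 in all arrays, and of 9 measured leukocyte markers 1 was higher and 1 lower in mt-CCs than in fl-CCs. Over all genes, each read at its probe set of smallest adjusted p, 22.2% were higher and 21.1% lower in mt-CCs than in fl-CCs. Those shares were 15.3% and 15.1% between R175H and EV cells. At the probe sets read between mt-CCs and fl-CCs, 2 epithelial, 5 fibroblast and 6 leukocyte markers were under 5 in all arrays. The part of these markers in the results below was not tested.

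In mt-CCs compared with fl-CCs, Ptges was higher at all 3 of its probe sets, Pla2g4a was lower, and Hpgd was lower to a level near background. Of the 11 member probe sets, 3 were higher and 3 lower at an adjusted p of 0.05 or less, against a background of 30.7% of all probe sets called (15.4% higher and 15.3% lower). By gene, 1 of 6 was higher and 2 were lower, where 43.3% of all genes were called. In 7 of 11 probe sets the groups did not overlap, against 41.8% of all probe sets. The median difference of the members was -0.08, beside -0.02 over all probe sets.

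With R175H compared with EV, Ptgs2, Ptges and Hpgd were higher at every one of their probe sets, and Ptger4 was lower at 1 of its 2. Here 7 of 11 probe sets were higher and 1 lower, where 20.3% of all probe sets were called (10.2% higher and 10.2% lower). By gene, 3 of 6 were higher and 1 was lower, against 30.4% of all genes called. The groups did not overlap in 8 of 11 probe sets, against 36.9% of all. The members' median difference was 0.75, beside -0.01 over all probe sets. An unmoderated model left 4 of the 7 higher calls.

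The vector control itself differed from its parental line. Between EV cells and fl-CCs 2 of the 11 probe sets were higher (Pla2g4a and 1 of Ptger4) and 3 lower (all of Ptges), against 12.1% of all probe sets called (6.45% higher and 5.66% lower). The groups did not overlap in 5 of 11, against 30.6% of all. The 2 higher calls and that of Ptges 1449450_at were lost in some fits without 1 array. EV arrays enter both this comparison and that with R175H, so each member is given below against both controls. Against parental fl-CCs, R175H cells had 6 of 11 probe sets higher and 1 lower, where 15% of all were called (7.77% higher and 7.25% lower). Between mt-CCs and R175H cells 4 were higher and 4 lower, where 33.1% were called (16.9% higher and 16.3% lower).

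**Figure D1:**
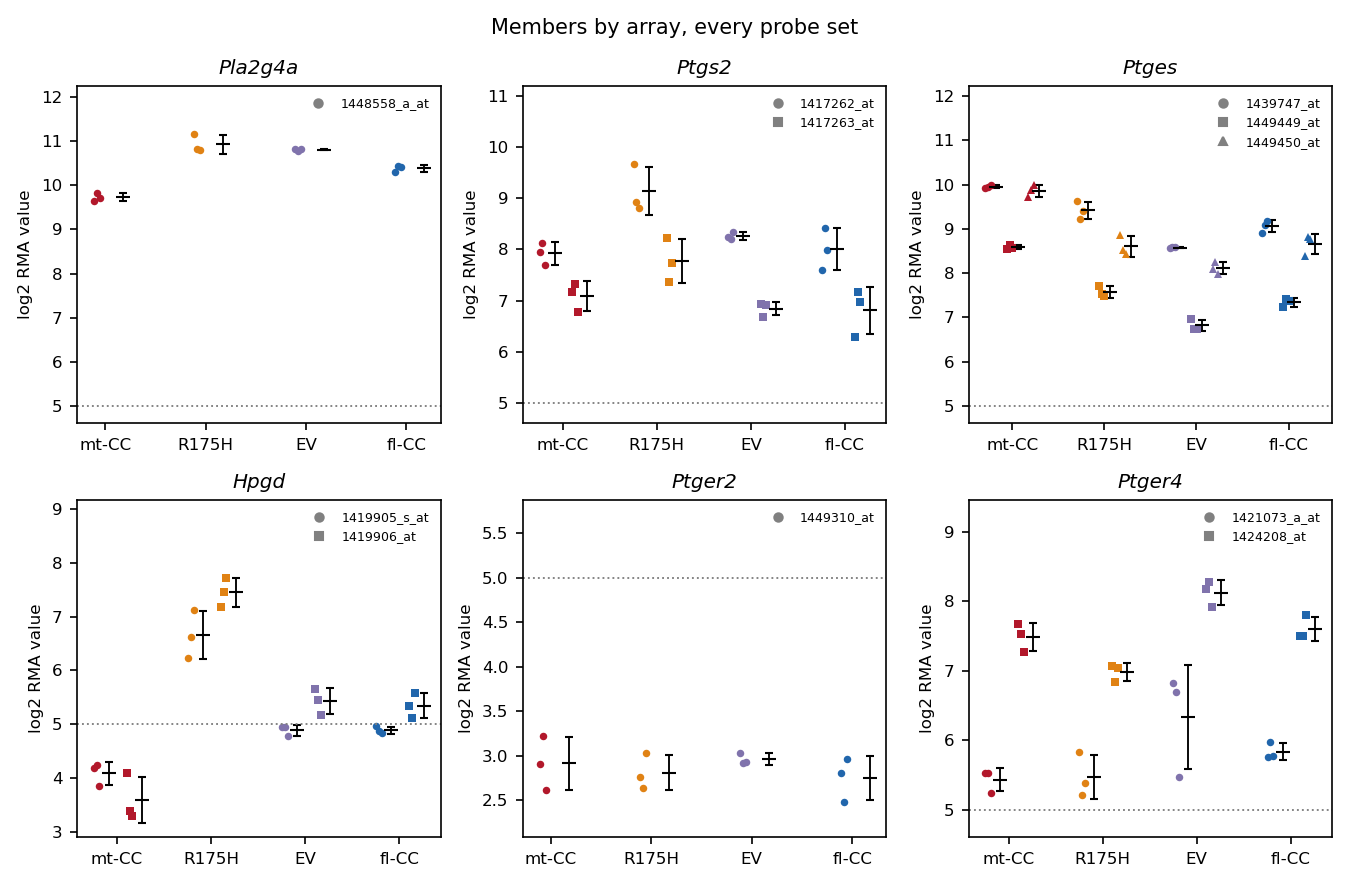
Log2 RMA values (y axis) of the 6 measured members in mt-CCs, R175H cells, EV cells and fl-CCs (x axis), with a marker shape per probe set, points for arrays, bars for the mean and SD of 3 arrays, and a dotted line at 5, under which values were taken as near background. Ptges was highest in mt-CCs at each probe set, Hpgd highest in R175H cells, and Ptger2 was under 5 in all 12 arrays.

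Pla2g4a encodes cytosolic phospholipase A2 alpha, which releases arachidonate. Its log2 values were 9.65, 9.84 and 9.70 in mt-CCs, 11.17, 10.82 and 10.80 in R175H cells, 10.82, 10.79 and 10.82 in EV cells, and 10.30, 10.44 and 10.42 in fl-CCs. All mt-CC arrays were below all others, and the R175H and EV arrays overlapped. The difference of mt-CCs from fl-CCs was -0.65 ± 0.11 (SE, 3 arrays a group), 1.57-fold lower in mt-CCs (adjusted p = 0.000431, limma). R175H minus EV was 0.12 with a 95% interval of -0.11 to 0.35 (adjusted p = 0.516). Against parental fl-CCs, Pla2g4a was higher in both transfected groups, by 0.54 ± 0.11 in R175H cells (adjusted p = 0.00485) and by 0.42 ± 0.11 in EV cells (adjusted p = 0.0215). The EV call was lost without fl-CC replicate 1 or 3 or any EV array, with adjusted p-values of up to 0.0746. From high to low the order was R175H cells, EV cells, fl-CCs and mt-CCs, in which the first pair did not differ beyond its spread.

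Ptgs2 encodes the inducible cyclooxygenase, COX-2, which commits arachidonate to prostanoids. Probe set 1417262_at read 7.95, 8.13 and 7.69 in mt-CCs, 9.67, 8.93 and 8.82 in R175H cells, 8.24, 8.19 and 8.35 in EV cells, and 7.61, 8.42 and 7.98 in fl-CCs. The second, 1417263_at, read 7.16, 7.33 and 6.77 in mt-CCs, 8.23, 7.36 and 7.73 in R175H cells, 6.92, 6.69 and 6.92 in EV cells, and 6.29, 7.17 and 6.96 in fl-CCs. At both, all R175H arrays were above all EV and fl-CC arrays, R175H replicate 1 was the highest of the 12, and mt-CC and fl-CC arrays overlapped. The 2 probe sets correlated at r = 0.88 over the 12 arrays, which share their groups.

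Between R175H and EV cells Ptgs2 differed by 0.88 ± 0.23 (1.84-fold, adjusted p = 0.0182) at 1417262_at and by 0.93 ± 0.25 (1.91-fold, adjusted p = 0.0190) at 1417263_at. Against parental fl-CCs the differences were 1.14 ± 0.23 (adjusted p = 0.00629) and 0.97 ± 0.25 (adjusted p = 0.0209). The mt-CCs minus fl-CCs differences were -0.08 (95% interval -0.59 to 0.43, adjusted p = 0.845) and 0.28 (95% interval -0.26 to 0.82, adjusted p = 0.458). EV cells and fl-CCs differed by 0.26 (adjusted p = 0.569) and 0.04 (adjusted p = 0.956). Without R175H replicate 1 the R175H minus EV differences were 0.61 and 0.70, with adjusted p-values of 0.0635 and 0.0786. Both calls were also lost in an unmoderated model (0.0558 and 0.0586) and without EV replicate 2 (0.0565 and 0.0669), and that of 1417262_at without EV replicate 1 (0.0519).

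Ptges encodes microsomal prostaglandin E synthase 1, the inducible terminal enzyme that works with COX-2. Values of 1439747_at were 9.92, 9.96 and 9.99 in mt-CCs, 9.62, 9.23 and 9.41 in R175H cells, 8.57, 8.58 and 8.58 in EV cells, and 8.91, 9.09 and 9.18 in fl-CCs. Those of 1449449_at were 8.55, 8.64 and 8.57 in mt-CCs, 7.71, 7.53 and 7.47 in R175H cells, 6.96, 6.74 and 6.74 in EV cells, and 7.23, 7.42 and 7.36 in fl-CCs. For 1449450_at they were 9.72, 9.87 and 9.99 in mt-CCs, 8.87, 8.52 and 8.42 in R175H cells, 8.09, 8.26 and 7.98 in EV cells, and 8.40, 8.81 and 8.76 in fl-CCs. At each probe set every mt-CC array was above all others and every EV array below all others, and at 1449450_at R175H and fl-CC arrays overlapped. The probe sets correlated at r = 0.919 to 0.968.

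In mt-CCs Ptges was higher than in fl-CCs by 0.89 ± 0.11, 1.25 ± 0.10 and 1.20 ± 0.15 (1.86-, 2.37- and 2.30-fold), with adjusted p-values of 3.37e-05, 9.57e-07 and 4.28e-05 in the order of the probe sets above. R175H exceeded EV by 0.85 ± 0.11, 0.75 ± 0.10 and 0.50 ± 0.15 (1.80-, 1.69- and 1.41-fold, adjusted p = 0.000144, 0.000202 and 0.0308). The last of these was lost with the replicate number as a block (adjusted p = 0.0511), in an unmoderated model (0.0621) and when EV replicate 1 or 3 or R175H replicate 1 or 2 was left out (up to 0.122). EV cells were themselves lower than fl-CCs by 0.48, 0.52 and 0.55 (adjusted p = 0.0105, 0.0045 and 0.0291), and the last of these was lost with only the 2 groups fitted (0.0511), with the replicate block (0.0513), in an unmoderated model (0.0614) and without fl-CC replicate 2 or 3 or EV replicate 1 or 3 (up to 0.104). Against parental fl-CCs, R175H cells differed by 0.36 ± 0.11 (adjusted p = 0.0378), 0.23 ± 0.10 (adjusted p = 0.148) and -0.05 ± 0.15 (adjusted p = 0.873), so that 1 of 3 probe sets passed the threshold against this control. The mt-CCs exceeded R175H cells by 0.53, 1.01 and 1.25 (adjusted p = 0.00176, 6.03e-06 and 2.82e-05).

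Hpgd encodes the NAD-dependent hydroxyprostaglandin dehydrogenase, which inactivates prostaglandin E2. Values of 1419906_at were 4.09, 3.38 and 3.29 in mt-CCs, 7.18, 7.45 and 7.71 in R175H cells, 5.65, 5.45 and 5.17 in EV cells, and 5.34, 5.11 and 5.58 in fl-CCs. Those of 1419905_s_at were 4.18, 4.23 and 3.84 in mt-CCs, 6.23, 6.62 and 7.11 in R175H cells, 4.95, 4.94 and 4.77 in EV cells, and 4.96, 4.87 and 4.83 in fl-CCs. R175H arrays were above all others at both, EV and fl-CC arrays overlapped, and mt-CC arrays were lowest and near background. The 2 probe sets correlated at r = 0.962.

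At 1419906_at R175H exceeded EV by 2.03 ± 0.22 (4.07-fold, adjusted p = 4.70e-05) and parental fl-CCs by 2.11 ± 0.22 (adjusted p = 6.92e-05). At 1419905_s_at, where EV and fl-CC arrays were under 5, R175H was higher by at least 1.66 on the log2 scale, the R175H mean less 5 (adjusted p = 3.55e-05 against EV and 7.05e-05 against fl-CCs). In mt-CCs 1419906_at was lower than in fl-CCs by at least 0.34 (adjusted p = 5.14e-05), the fl-CC mean less 5. At 1419905_s_at both were near background and no difference is given, although the probe set passed the threshold. The mt-CCs were lower than R175H cells by at least 2.45 at 1419906_at (adjusted p = 4.41e-08). EV minus fl-CC at that probe set was 0.08 (95% interval -0.39 to 0.55, adjusted p = 0.880).

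The EP2 receptor gene Ptger2 was under 5 in all 12 arrays, with 2.92 ± 0.30 in mt-CCs, 2.81 ± 0.20 in R175H cells, 2.96 ± 0.06 in EV cells and 2.75 ± 0.24 in fl-CCs (SD, n = 3 each). No difference is given for it, and it was called in none of the 3 comparisons. Ptger4, the gene of the EP4 receptor, was measured above that limit by a pair of probe sets.

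Probe set 1424208_at of Ptger4 read 7.67, 7.52 and 7.27 in mt-CCs, 7.07, 6.84 and 7.04 in R175H cells, 8.17, 8.28 and 7.92 in EV cells, and 7.49, 7.50 and 7.81 in fl-CCs. R175H arrays were below and EV arrays above all others, and mt-CC and fl-CC arrays overlapped. R175H minus EV was -1.14 ± 0.14 (2.21-fold lower in R175H cells, adjusted p = 0.000101), and R175H minus parental fl-CCs was -0.62 ± 0.14 (adjusted p = 0.00936). EV cells exceeded fl-CCs by 0.52 ± 0.14 (adjusted p = 0.0257), a call lost in fits without fl-CC replicate 1 or 2 or EV replicate 1 or 2 (adjusted p up to 0.0985). The mt-CCs minus fl-CCs difference was -0.11 (95% interval -0.41 to 0.18, adjusted p = 0.600).

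The other Ptger4 probe set, 1421073_a_at, read 5.53, 5.52 and 5.24 in mt-CCs, 5.83, 5.21 and 5.38 in R175H cells, 6.83, 6.69 and 5.47 in EV cells, and 5.76, 5.98 and 5.77 in fl-CCs. EV replicate 3 was far below the other EV arrays and lay among the R175H arrays. R175H minus EV was -0.86 ± 0.29 (adjusted p = 0.0583), and without EV replicate 3 it was -1.29 (adjusted p = 0.000495). Without that array EV cells also exceeded fl-CCs, by 0.92 (adjusted p = 0.00709). R175H minus parental fl-CCs was -0.36 ± 0.29 (adjusted p = 0.486), with overlapping arrays. The probe sets of Ptger4 correlated at r = 0.739, the lowest of the members' pairs. The mt-CCs minus fl-CCs difference here was -0.41 (adjusted p = 0.344), with mt-CC arrays all below fl-CC arrays, and it passed the threshold when only these 2 groups were fitted (adjusted p = 0.0413).

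**Figure D2:**
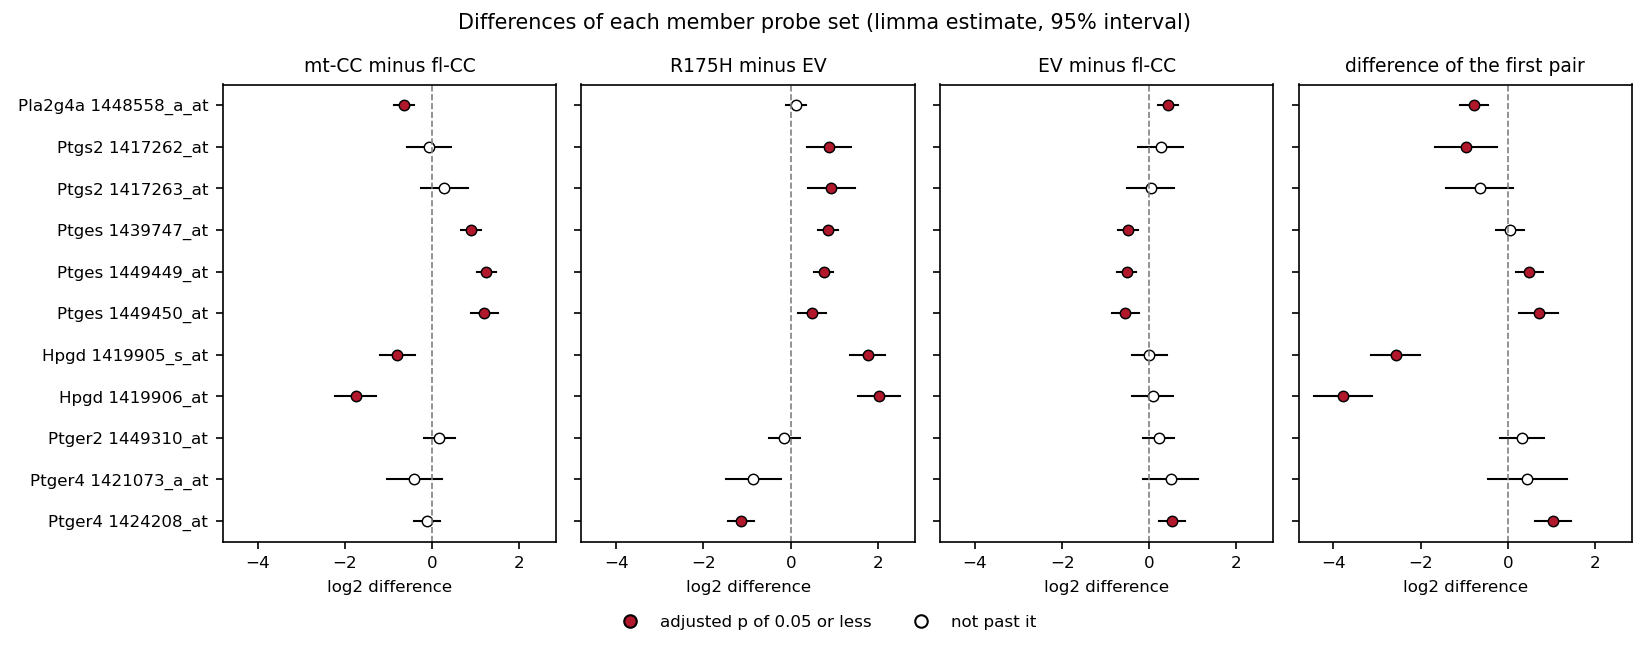
Log2 differences (x axis) of the 11 member probe sets (y axis) for mt-CCs minus fl-CCs, R175H minus EV, EV minus fl-CCs, and the first difference minus the second, with 95% intervals from limma; filled points passed an adjusted p of 0.05. Ptger4 1424208_at lay at -1.14 in the second panel and at 1.03 in the last, and Hpgd and Ptger2 points are fitted values that involve groups near background, so their sizes are not read.

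The differences seen with endogenous and with introduced mutant p53 were set against each other as a difference of differences over the first pair of comparisons, which share no arrays. It passed the threshold at 7 of 11 member probe sets, 3 higher and 4 lower, against 26.8% of all probe sets (13.6% higher and 13.1% lower). Hpgd passed at both probe sets in the negative direction (adjusted p = 1.25e-05 and 1.93e-06). Its size is not read, since mt-CCs were near background at both and EV cells and fl-CCs also were at 1419905_s_at. For Pla2g4a it was -0.77 ± 0.15 (adjusted p = 0.00197) and for Ptger4 1424208_at 1.03 ± 0.19 (adjusted p = 0.00151). For Ptges it was 0.05 (adjusted p = 0.862), 0.49 (adjusted p = 0.0195) and 0.71 (adjusted p = 0.0231), so the difference was larger for mt-CCs at 2 of 3 probe sets, and both of those calls were lost in some fits without 1 array (EV replicate 1 or R175H replicate 3 for 1449449_at, and mt-CC replicate 3, EV replicate 2 or R175H replicate 2 or 3 for 1449450_at, with adjusted p up to 0.0509 and 0.0589). For Ptgs2 it was -0.96 ± 0.33 (adjusted p = 0.0485) and -0.65 ± 0.35 (adjusted p = 0.211), and the call at 1417262_at was lost with the replicate block (0.0667), in an unmoderated model (0.110) and without R175H replicate 1, any EV array, fl-CC replicate 2 or 3 or mt-CC replicate 1 or 3 (up to 0.109).

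By Pearson correlation over the 12 arrays with 12380 candidate genes, the genes most like Ptges were Nav2 (r = 0.987), Bmpr1a (0.984) and Fam131a (0.981). Man2b1 (0.984), Cert1 (0.983) and Med6 (0.982) were most like Hpgd. The genes nearest to Ptgs2 were Vkorc1l1 (0.964), Grsf1 (0.953) and Chrna1 (0.940). For Pla2g4a they were Coq10b (0.993), Bpgm (0.992) and Cdkn2aip (0.990), and for Ptger4 they were Lrrfip1 (0.964), Zfp36l2 (0.955) and Hsd17b7 (0.950). The arrays share 4 group means, so these values describe a likeness of group levels.

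Other genes of the pathway were read from lists, with a gene read in a comparison at whichever of its probe sets had the smallest adjusted p, where 43.3% of all genes were called between mt-CCs and fl-CCs (22.2% higher and 21.1% lower) and 30.4% between R175H and EV cells (15.3% higher and 15.1% lower). Among 23 measured genes of arachidonate release, 1 was higher and 7 lower in mt-CCs, with a median difference of -0.13 beside -0.01 over all genes, and 2 were higher and 2 lower with R175H. The 7 lower genes include Pla2g4c and Pla2g15, each read at a probe set that was near background in both groups, and the higher gene was Anxa1 (0.31, adjusted p = 0.0061), whose product is known to restrain phospholipase A2. Faah, whose hydrolase frees arachidonate from anandamide, read 4.20, 3.66 and 3.52 in mt-CCs against 6.82, 6.64 and 6.79 in fl-CCs at 1434091_at. At that probe set it was lower in mt-CCs by at least 1.75 (adjusted p = 5.58e-08). At 1421969_a_at, above 5 in all arrays, mt-CCs minus fl-CCs was -1.63 ± 0.10 (adjusted p = 9.39e-08). There Faah was higher in R175H than in EV cells by 0.40 ± 0.10 (adjusted p = 0.0138), and lower in EV cells than in fl-CCs by 0.54 (adjusted p = 0.00422).

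Of 8 measured prostanoid synthases and related enzymes, 2 were higher and 4 lower in mt-CCs (median -0.36, with Hpgds near background in both groups among the lower), and 4 were higher and 0 lower with R175H (median 0.35). Ptgds, a prostaglandin D synthase, read 5.56, 6.38 and 6.10 in mt-CCs, 10.52, 11.07 and 10.77 in R175H cells, 9.19, 8.60 and 8.82 in EV cells, and 10.79, 10.66 and 11.06 in fl-CCs at 1423859_a_at. The mt-CC arrays were lowest, EV arrays next, and R175H and fl-CC arrays overlapped. Ptgds differed by -4.82 ± 0.22 between mt-CCs and fl-CCs (adjusted p = 5.54e-09) and by 1.92 ± 0.22 between R175H and EV cells (adjusted p = 7.47e-05). Against parental fl-CCs, R175H cells averaged 10.79 ± 0.27 and fl-CCs 10.83 ± 0.20 (SD, n = 3 each), a difference of -0.04 (adjusted p = 0.934).

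Gstm2, a glutathione transferase whose human counterpart can form prostaglandin E2, read 11.54, 11.45 and 11.40 in mt-CCs, 9.17, 9.36 and 9.41 in R175H cells, 8.41, 8.15 and 8.18 in EV cells, and 9.46, 9.73 and 9.66 in fl-CCs. It was higher by 1.85 ± 0.11 in mt-CCs against fl-CCs (adjusted p = 5.61e-08) and by 1.07 ± 0.11 in R175H than in EV cells (adjusted p = 2.84e-05). R175H cells did not pass the threshold against fl-CCs (-0.30, adjusted p = 0.0841), and EV cells were lower than fl-CCs by 1.37 (adjusted p = 8.69e-06). Ptges2, a second prostaglandin E synthase, was higher by 0.70 ± 0.10 in mt-CCs (adjusted p = 0.000131) and by 0.43 ± 0.10 in R175H cells (adjusted p = 0.00802) against fl-CCs and EV cells. Hpgds, the hematopoietic prostaglandin D synthase, was near background in mt-CC, EV and fl-CC arrays, and in R175H cells it was higher than in EV cells by at least 0.63 (adjusted p = 0.000148). Prxl2b, which encodes a prostamide and prostaglandin F synthase, read 5.65, 4.73 and 4.70 in mt-CCs against values of 6.32 to 7.09 in fl-CCs, a difference of -1.78 ± 0.26 (adjusted p = 0.000211). Ptges3 had only probe sets with several symbols and is not named with a value.

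**Figure D3:**
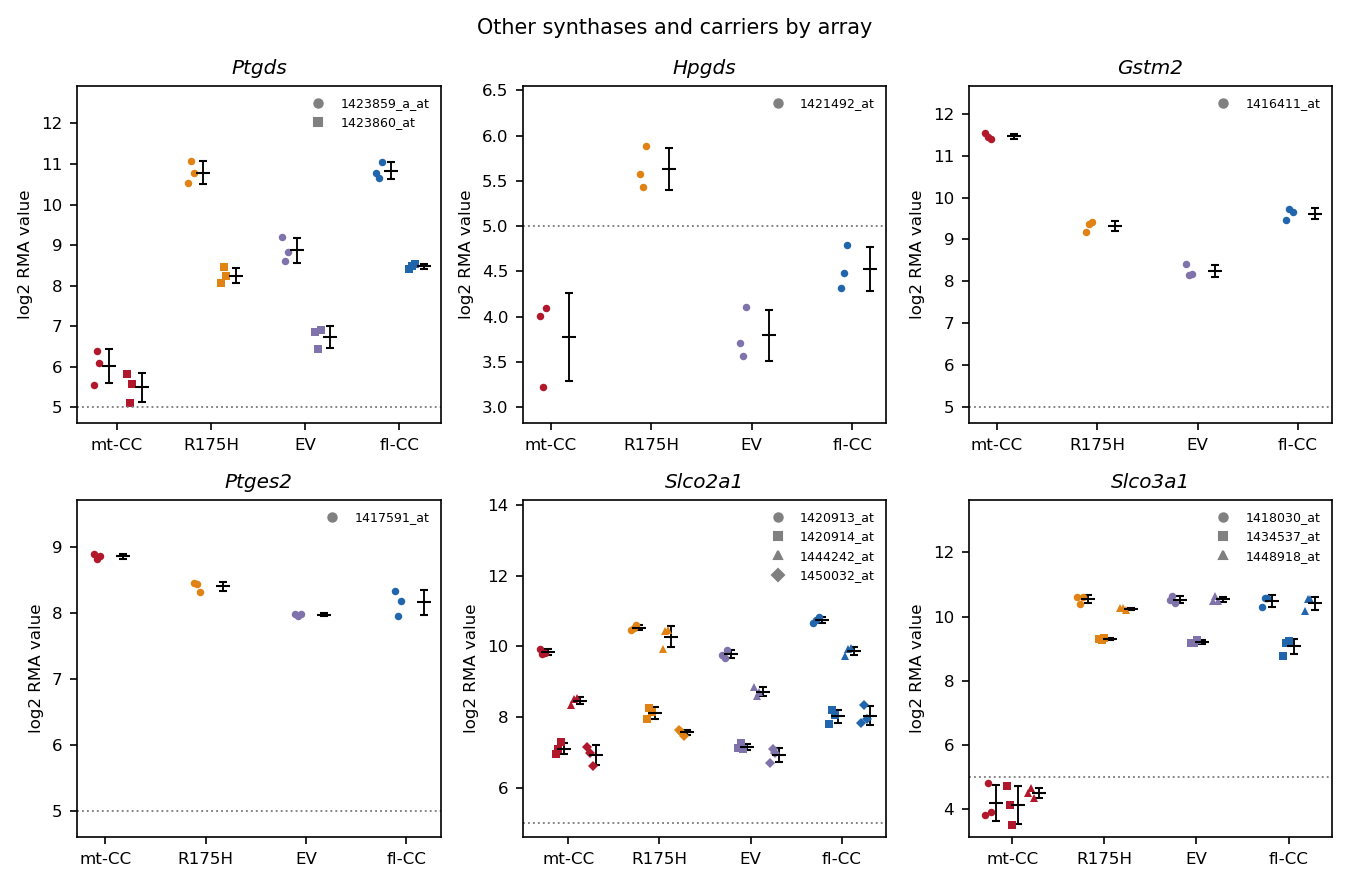
Log2 RMA values (y axis) of synthases and carriers of prostaglandins in mt-CCs, R175H cells, EV cells and fl-CCs (x axis), with a marker shape per probe set, points for arrays, bars for the mean and SD of 3 arrays, and a dotted line at 5. Ptgds averaged 6.01 in mt-CCs, 10.79 in R175H cells, 8.87 in EV cells and 10.83 in fl-CCs at 1423859_a_at.

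Among 8 measured genes of prostanoid turnover and transport, 1 was higher and 6 lower in mt-CCs (median -0.86), and 1 was higher and 2 lower with R175H (median -0.17). Slco2a1 encodes the prostaglandin transporter that brings prostaglandin E2 into cells ahead of its breakdown by the Hpgd enzyme. At 1444242_at it read 8.35, 8.51 and 8.54 in mt-CCs, 9.93, 10.42 and 10.46 in R175H cells, 8.86, 8.60 and 8.70 in EV cells, and 9.74, 9.92 and 9.94 in fl-CCs. It was lower in mt-CCs than in fl-CCs (-1.40, adjusted p = 7.19e-06) and higher in R175H than in EV cells by 1.55 ± 0.14 (adjusted p = 1.01e-05), but R175H minus fl-CCs was 0.40 (adjusted p = 0.0721). The other Slco2a1 probe sets were called in the same directions in the first pair of comparisons. Their R175H minus fl-CCs differences were -0.23 (1420913_at), 0.09 (1420914_at) and -0.47 (1450032_at), none past the threshold. Slco3a1, another organic anion carrier, read 4.50, 4.65 and 4.35 in mt-CCs against 10.16, 10.53 and 10.54 in fl-CCs at 1448918_at, lower by at least 5.41 (adjusted p = 6.14e-12). Akr1c14, an aldo-keto reductase, differed by -1.79 (adjusted p = 1.00e-06) between mt-CCs and fl-CCs. It was also lower than in fl-CCs in EV cells (-1.37, adjusted p = 7.19e-05) and in R175H cells (-1.20, adjusted p = 0.000173).

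Cbr1, a carbonyl reductase that acts on prostaglandin E2, was lower in both settings, with differences of -1.09 in mt-CCs from fl-CCs (adjusted p = 3.54e-06) and -0.47 in R175H from EV cells (adjusted p = 0.00548). Abcc4, an exporter of prostaglandins, was lower likewise, with differences of -0.60 (adjusted p = 6.16e-05) and -0.36 (adjusted p = 0.00473). Of the 8 other genes listed with the prostanoid receptors, 4 were under 5 in all arrays at the probe set read between mt-CCs and fl-CCs. At 1450491_at Ptger1, the EP1 receptor gene, was higher in mt-CCs by 0.38 relative to fl-CCs (adjusted p = 0.0221) and by 0.38 in R175H than in EV cells (adjusted p = 0.0326), with a mean of 5.48 ± 0.11 in mt-CCs, 5.32 ± 0.08 in R175H cells, 4.95 ± 0.21 in EV cells and 5.10 ± 0.08 in fl-CCs (SD, n = 3 each). The other Ptger1 probe set, 1445445_s_at, was under 5 in all arrays. Ptger3, the EP3 receptor gene, was near background. In that list 2 genes were higher and 0 lower in mt-CCs, the other being Ptgfrn (0.37, adjusted p = 0.0123), whose product restrains the prostaglandin F receptor, and 1 was higher and 0 lower with R175H.

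The EP2 and EP4 receptors signal through cyclic AMP. Of 31 measured genes of this signaling, 12 were higher and 4 lower in mt-CCs than in fl-CCs, with a median difference of 0.26 beside -0.01 over all genes, and 5 were higher and 6 lower with R175H (median -0.11). Pde4b, a phosphodiesterase that breaks down cyclic AMP, read 7.63, 7.51 and 7.61 in mt-CCs against 3.22, 3.38 and 3.86 in fl-CCs at 1422474_at, higher by at least 2.59 (adjusted p = 2.14e-09). Of its 6 probe sets, 1422473_at was also higher in mt-CCs, by at least 0.90 (adjusted p = 2.10e-07). The remaining Pde4b probe sets were under 5 in all arrays. Another phosphodiesterase gene, Pde8a, was higher by at least 1.65 at 1418407_at (adjusted p = 7.90e-08). At its brighter probe set 1418406_at, above 5 in all arrays, the difference was 3.43. Prkar1b, a regulatory subunit of protein kinase A, was higher by 2.49 ± 0.18 (adjusted p = 5.31e-07), and Adcy7, an adenylyl cyclase, by 2.37 ± 0.18 (adjusted p = 6.57e-07). Both genes also averaged higher in the transfected groups than in fl-CCs. For Prkar1b 1440132_s_at EV minus fl-CCs was 1.42 and R175H minus fl-CCs 1.28. For Adcy7 1456307_s_at these differences were 0.69 and 0.88.

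Adcy3, a further adenylyl cyclase, and Prkar2b, another regulatory subunit, were higher in mt-CCs and in EV cells. Adcy3 read 7.31, 7.24 and 7.26 in mt-CCs, 5.12, 5.46 and 5.70 in R175H cells, 7.03, 7.19 and 7.23 in EV cells, and 5.28, 5.30 and 5.70 in fl-CCs at 1421960_at. It differed by 1.84 ± 0.15 between mt-CCs and fl-CCs (adjusted p = 1.08e-06) and by -1.73 ± 0.15 between R175H and EV cells (adjusted p = 7.55e-06). Prkar2b read 8.05, 8.44 and 8.30 in mt-CCs, 7.28, 7.42 and 7.20 in R175H cells, 8.98, 8.93 and 9.05 in EV cells, and 7.35, 7.21 and 7.41 in fl-CCs at 1438664_at. R175H minus EV was -1.69 ± 0.11 (adjusted p = 8.25e-07) and EV minus fl-CCs 1.66 ± 0.11 (adjusted p = 2.18e-06), and R175H and fl-CC arrays overlapped. The named genes of all lists that passed the threshold between R175H and EV cells numbered 13. Of these 3 (Hpgds, Cbr1 and Abcc4) also passed between R175H cells and parental fl-CCs, where 24% of all genes did. Between EV cells and fl-CCs 9 of the 13 passed, 8 of them in the opposite direction, where 19.6% of all genes did. That count was made after the values were seen, and the EV arrays enter both comparisons.

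**Figure D4:**
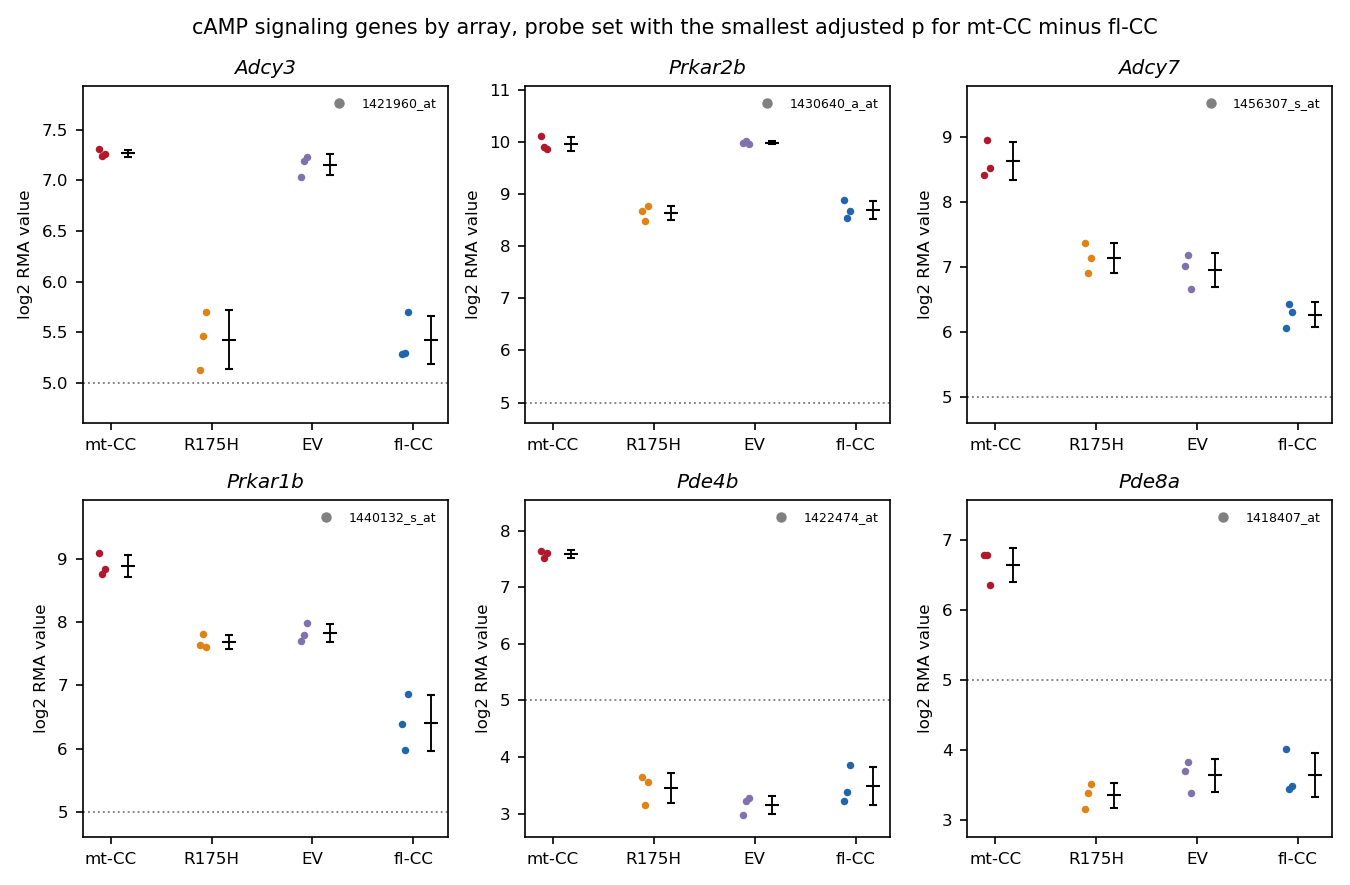
Log2 RMA values (y axis) of 6 cyclic AMP signaling genes in mt-CCs, R175H cells, EV cells and fl-CCs (x axis), each at the probe set of smallest adjusted p between mt-CCs and fl-CCs, with points for arrays, bars for the mean and SD of 3 arrays, and a dotted line at 5. Pde4b was above 5 in mt-CCs only, and Adcy3 averaged 7.27 in mt-CCs, 5.43 in R175H cells, 7.15 in EV cells and 5.42 in fl-CCs.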

How the data were processed

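The authors isolated RNA from cultured cells, hybridized it to Affymetrix mouse arrays and summarized the probe sets by RMA (version not given in the sources used here). The deposited values are log2 RMA values of 12 arrays, with 0 missing. The methods state biological triplicates. The number of arrays limits the precision.

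From these values, 64 control probe sets were left out of 45101, and the other 45037 entered a single limma fit of 4 group means (limma 3.58.1, lmFit then eBayes, R 4.3.3), with Benjamini-Hochberg adjustment over all probe sets and a threshold of 0.05 with no fold limit. The platform annotation gave 34945 probe sets 1 symbol, 932 several and 9160 none, and 34741 symbols were matched to RefSeq GRCm38.p6 by gene number with 0 changed. Trp53 was not analysed here, so the labels were not checked on the targeted gene. The fit was tested on simulated data.

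The members and the gene and marker lists were chosen with earlier results of these data known. All members are given with values, and from each list the genes called with a log2 difference of at least 1 and a higher mean of at least 5, at most 4 a list and comparison, besides Ptges2, Ptger1, Ptger3, Slco2a1 and Abcc4. Anxa1, Ptgfrn, Pla2g4c, Pla2g15 and Lta4h were named after their values were seen. Where a group was under 5 on all its arrays, a difference is a bound against 5. The fit was repeated with only the groups compared, a replicate block, no moderation, a trend on intensity, weights for arrays, dim probe sets removed, controls included, quantile normalization or median centring, a limit on the difference, limits of 4 and 6 for background, the probe set of highest mean for a gene, and without each array in turn. Parental fl-CCs as the control and the remaining pairs of groups were added after seeing the data.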

Additional observations from a re-analysis of the deposited data

Results flagged for a closer look

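For the results below, the difference between mt-CCs and fl-CCs was unlike that between R175H and EV cells by limma's test of the difference itself, given here as the first minus the second on the log2 scale. Where a group was near background the value is a fitted one whose size is not read. This holds for Hpgd, Hpgds, Slco3a1, Pde4b and Faah 1434091_at. At the members it was -0.77 for Pla2g4a, -0.96 for Ptgs2 1417262_at, 0.49 for Ptges 1449449_at, 0.71 for Ptges 1449450_at, -2.57 for Hpgd 1419905_s_at, -3.78 for Hpgd 1419906_at and 1.03 for Ptger4 1424208_at (adjusted p from 1.93e-06 to 0.0485). The call of Ptgs2 held in 4 of 12 fits without 1 array.

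List genes are given at the brightest of their probe sets, by the mean of all arrays. Among the release, synthesis and transport genes it was -2.04 for Faah 1421969_a_at, -6.74 for Ptgds 1423859_a_at, 0.78 for Gstm2, -1.32 for Prxl2b, -2.59 for Hpgds, -6.30 for Slco3a1 1418030_at, -1.96 for Akr1c14, -1.66 for Slco2a1 1420913_at and -0.63 for Cbr1. For Ephx2, a hydrolase of arachidonate epoxides, it was -1.91. Among the cyclic AMP genes it was 3.81 for Pde4b 1422474_at, 3.13 for Pde8a 1418406_at, 2.63 for Prkar1b 1440132_s_at, 2.18 for Adcy7 1456307_s_at, 1.36 for Adcy3 1421959_s_at and 2.61 for Prkar2b 1430640_a_at. At the probe sets described above for these genes it was -3.39 for Faah 1434091_at, -2.95 for Slco2a1 1444242_at, -5.62 for Slco3a1 1448918_at and 3.57 for Adcy3 1421960_at. At the brightest probe sets the adjusted p of these 16 genes ran from 1.20e-08 to 0.0187. Of the 13 named list genes called between R175H and EV cells, 8 had passed between EV cells and fl-CCs in the direction opposite to R175H minus EV.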

How the results depend on the processing

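Under the alternatives other than leaving out an array, 363 of 381 values kept their direction and their side of the threshold, or for counts stayed within 1.5 times, and 476 of 528 did with an array left out. With a limit of 1 on the log2 difference, mt-CCs minus fl-CCs had 2002 probe sets higher and 1740 lower. Of the members, 2 probe sets of Ptges stayed higher and 1 of Hpgd lower, the latter by a fitted value with mt-CCs near background. R175H minus EV had 822 and 730 with 2 member probe sets higher (both of Hpgd) and 1 lower (of Ptger4). EV minus fl-CCs had 552 and 497 with 0 member probe sets higher and 0 lower. The difference of differences had 2640 and 2375 with 1 member probe set higher (of Ptger4) and 2 lower (both of Hpgd). Member probe sets lower with R175H numbered 2 with the replicate block, an intensity trend, array weights or the filter on dim probe sets. Both were of Ptger4, and the added one was 1421073_a_at (adjusted p = 0.0371, 0.0310, 0.0195 and 0.0379). Member probe sets higher with R175H numbered 4 in an unmoderated model. Member probe sets higher in EV cells than in fl-CCs numbered 1 with only the 2 groups in the fit and 1 in an unmoderated model. The cause of these changes was not tested.

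Without 1 array, probe sets higher and lower ran from 6036 to 6870 and 5861 to 6789 for mt-CCs minus fl-CCs, 3562 to 4757 and 3552 to 4785 for R175H minus EV, 2035 to 2995 and 1743 to 2625 for EV minus fl-CCs, and 5505 to 5953 and 5297 to 5713 for the difference of differences. Member probe sets higher and lower ran from 3 to 3 and 3 to 3, 4 to 7 and 1 to 2, 0 to 2 and 2 to 3, and 1 to 4 and 3 to 4 in the same order.

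Of the values that changed sign, that of Ptges 1449450_at for R175H minus EV had been called (0.50, adjusted p = 0.0308), and the others were small and not called. Array weights gave EV minus fl-CCs -0.089 for Ptgs2 1417263_at and 0.035 for Hpgd 1419905_s_at. Without 1 array, mt-CCs minus fl-CCs for Ptgs2 1417262_at ran from -0.28 to 0.13, EV minus fl-CCs from -0.22 to 0.22 for Ptgs2 1417263_at, -0.033 to 0.058 for Hpgd 1419905_s_at and -0.038 to 0.21 for Hpgd 1419906_at, R175H minus EV for Pla2g4a from -0.00058 to 0.18, and the difference of differences for Ptges 1439747_at from -0.047 to 0.15. With parental fl-CCs in place of EV, R175H gave -0.053 for Ptges 1449450_at (adjusted p = 0.873) and a fitted 0.062 for Ptger2, which was near background in all arrays.

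The replicate numbers did not pair the arrays. Deviations from the group means correlated from -0.0897 to 0.0582 between arrays of the same number, and 3 of 12 arrays correlated best with their own number. As a block, the number ended the calls of Ptges 1449450_at for R175H minus EV (adjusted p = 0.0511) and EV minus fl-CCs (0.0513) and that of Ptgs2 1417262_at for the difference of differences (0.0667), and added Ptger4 1421073_a_at (0.0371). Values near background limit Hpgd in mt-CCs and Ptger2 in all groups.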

Other observations

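The leukotriene and lipoxygenase branch of arachidonate metabolism was measured by 16 genes, of which 1 was higher and 1 lower in mt-CCs than in fl-CCs, and 0 were higher and 2 lower with R175H than with EV. Over all genes, 43.3% were called in the first of these comparisons and 30.4% in the second. At the probe sets read, 8 of the 16 genes were under 5 in all arrays in the first comparison and 9 in the second. Ephx2, the soluble epoxide hydrolase, read 5.51 to 6.24 in mt-CCs, 9.22, 9.06 and 9.10 in R175H cells, 10.38, 10.30 and 10.35 in EV cells, and 9.03, 9.05 and 9.02 in fl-CCs. It differed by -3.12 ± 0.15 between mt-CCs and fl-CCs (adjusted p = 7.56e-09) and by -1.21 ± 0.15 between R175H and EV cells (adjusted p = 0.000117), while R175H minus parental fl-CCs was 0.09 (adjusted p = 0.759). Lta4h, the leukotriene A4 hydrolase gene, differed by 0.84 between mt-CCs and fl-CCs (adjusted p = 6.02e-05),. Cysltr1, a receptor of cysteinyl leukotrienes, was lower in R175H than in EV cells by at least 0.38 at 1418944_at (adjusted p = 0.00678), with all R175H arrays near background and 2 of 3 EV arrays above it. EV cells also exceeded fl-CCs there, by at least 0.38 (adjusted p = 0.00142). R175H cells and fl-CCs were both near background and did not differ past the threshold (adjusted p = 0.271). The other Cysltr1 probe set, 1449282_at, was under 5 in all arrays.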
